A study of Saccharomyces cerevisiae with 18 samples.

Results

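Young budding yeast cells that lack both MSN2 and MSN4 (msn2∆msn4∆, 3 libraries) were compared with young wild-type (WT) cells (3 libraries), which are 6 of the 18 RNA sequencing libraries of the study, over all genes. The libraries were taken by their labels, with no value of the data used. The whole study sequenced polyA RNA of msn2∆msn4∆, msn2∆ and WT cells, each harvested young or after 24 h of aging, with 3 libraries a group. The double deletion strain (CGY69.30) has the genotype MAT@ msn2::HphNT1 msn4::NatNT2, in which drug resistance cassettes disrupt both genes. The msn2∆ strain (CGY61.46) is MAT@ msn2::HphNT1, and the WT strain (CGY4.51) is MAT@ with no other allele given. Young cells of all 3 genotypes were growing exponentially in biotin-free synthetic medium with 2% glucose and 2% MMP DAPA at pH 4.5, and aged cells of the same strains were mothers kept 24 h in a Ministat Aging Device, a culture device for mother cells, which per the protocol were labelled with beads. Each genotype was 1 strain. Separate cultures are not stated for the replicates, and a p-value therefore measures only the spread between these samples, which may be technical.

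Msn2 and Msn4 are related zinc finger transcription factors of the general stress response in budding yeast. In growing cells with ample glucose, protein kinase A keeps them largely in the cytoplasm. When its activity drops or stress sets in, they enter the nucleus and bind the stress response element, a short promoter motif with the core AGGGG, upstream of genes for storage sugars, antioxidants and small protective proteins. The comparison of young cells asks what these factors contribute to transcript levels in unstressed, dividing cells.

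The 3 young double deletion libraries held 27698098 to 33651287 counts and the 3 young WT libraries 30140441 to 35101890. The first principal component of the 9 young libraries, with 46.5% of the variance, put the double deletion at 10.6 to 15.6, msn2∆ at 5.44 to 10.2 and WT at -24.1 to -17.9, so the double deletion did not overlap WT or msn2∆ on it. On the second, with 21.7%, replicate 3 of the double deletion stood apart at -20.2. Levels are given as CPM (library-size normalised counts, with TMM factors), and differences as log2 fold changes ± SE of the young double deletion over young WT from edgeR's quasi-likelihood test, which is two-sided and adjusted over 6833 tested features by the Benjamini-Hochberg method. A feature was called higher or lower at an adjusted p under 0.05. The label MAT@, read as mating type alpha, was checked on mating genes: STE3, the receptor of alpha cells, averaged 389.9 ± 18.4 CPM in the double deletion and 201 ± 1.08 CPM in WT, and STE2, the receptor of a cells, 10.8 ± 0.69 CPM in the double deletion and 9.41 ± 1.11 CPM in WT (SD, n = 3 each).

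The levels of short and long genes differed between libraries, and between the double deletion and WT. Genes with an annotated span of up to 750 bases had median deviations from the mean of the 9 young libraries of -0.08, -0.07 and -0.23 (log2) in the 3 double deletion libraries, against 0.04, 0.21 and 0.11 in the 3 WT libraries. The 3 msn2∆ libraries stood at 0.01, 0.07 and -0.03 and overlapped WT. For genes of up to 300 bases, replicate 1 of the double deletion and replicate 1 of WT both stood at -0.02. Genes over 1500 bases deviated by 0.04, 0.04 and 0.10 in the double deletion and by -0.03, -0.11 and -0.06 in WT. Of 1581 genes of up to 750 bases 39.2% were called lower and 5.38% higher, and of 2241 genes over 1500 bases 7.85% were called lower and 31.1% higher. A second fit, added after the data were seen, removed the length trend of each library from the 5949 tested features that had coordinates, which also takes away any change that genes of 1 length share. Its counts, and those with library totals, are given below for some of the lists in which they moved. A list shown without them may also have moved. Replicate 3 of the double deletion and replicate 2 of WT lay at the ends of this trend.

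The deleted genes gave few or fewer counts. MSN2 (YMR037C; minus strand of chromosome XIII, 344403 to 346517 in R64) had 4.48, 3.63 and 2.6 CPM in the double deletion, against 40.9, 39.3 and 45 CPM in WT. It stood at 4.2, 4.23 and 4.43 CPM in msn2∆, close to the double deletion and far below WT. MSN4 (YKL062W, chromosome XI, 323228 to 325120) stood at 23.9, 22.2 and 18.1 CPM in the double deletion, 54.4, 43.9 and 53.4 CPM in msn2∆ and 45.1, 43.1 and 39.6 CPM in WT. The groups did not overlap for either gene between the double deletion and WT, but MSN4 was 2.0-fold lower and MSN2 11.8-fold lower (-1.0 ± 0.0985, adjusted p = 2.28e-07, and -3.56 ± 0.136, adjusted p = 8.83e-14). Counts per gene do not show which stretch of MSN4 those reads cover. Among the nearest annotated neighbours, MIH1, CCS1 and BLI1 did not pass (log2 -0.02, 0.14 and 0.14), and with the length trend removed CCS1 and BLI1 passed as higher (0.29 and 0.39). YKL063C, near MSN4, passed narrowly at -0.36 ± 0.139 (adjusted p = 0.0477) with overlapping groups, and its call was lost on leaving out replicate 3 of the double deletion or replicates 2 or 3 of WT (adjusted p up to 0.246).

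Of the 6833 features, 2579 (37.7%) passed, 1221 of them higher (17.9%) and 1358 lower (19.9%) in the double deletion. Most of these differences were small: 1680 had an absolute log2 fold change under 0.5. At least 2-fold differences were 154 (2.25%), 35 higher (0.512%) and 119 lower (1.74%), and the strongest of them were on the lower side, where 30 features were at least 4-fold lower and 4 at least 16-fold lower, against 4 at least 4-fold higher. When tested for an absolute log2 change beyond 0.5 (edgeR's glmTreat), 42 features were higher and 151 lower. In all, 2865 features (41.9%) had groups that did not overlap, as had all 119 of the 2-fold lower and 34 of the 35 2-fold higher ones. Scaling by library totals alone, without TMM, moved the median over all features to 0.16, against -0.0075 with TMM, and gave 2005 higher and 681 lower features. Counts with library totals given for single lists below carry this shift of all features.

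**Figure D1:**
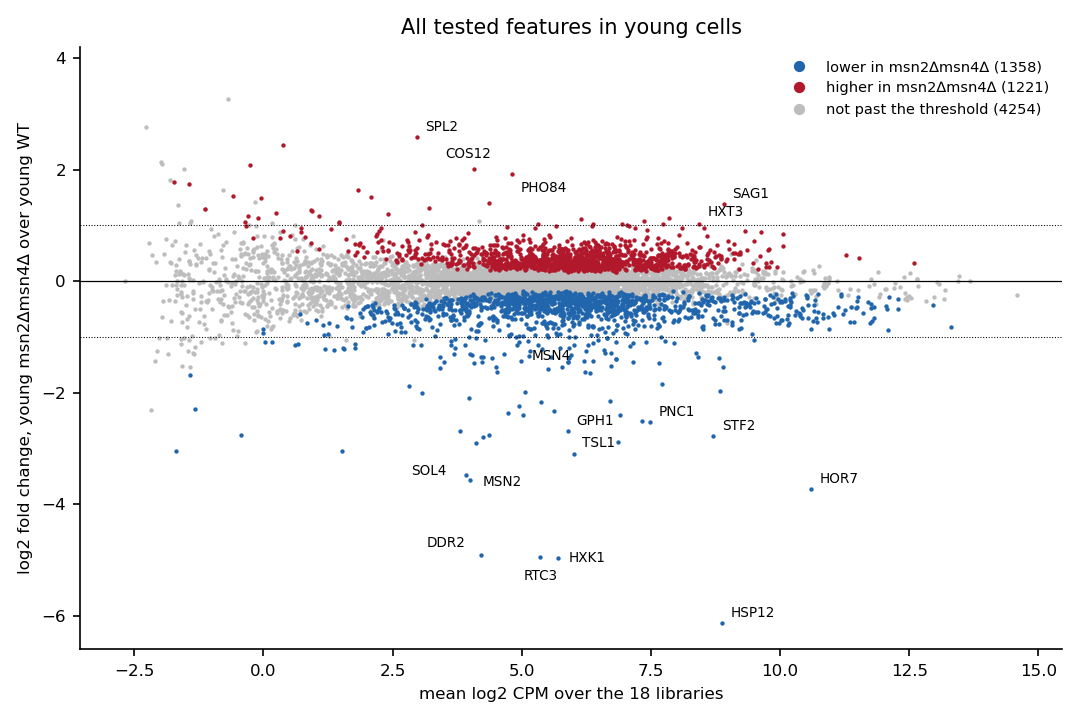
Log2 fold change of young msn2∆msn4∆ over young WT (vertical axis) against mean log2 CPM over the 18 libraries (horizontal axis), 1 point a feature, coloured by the call at an adjusted p under 0.05, with dotted lines at 2-fold. The lower side reaches -6.14 (HSP12), the higher side 2.58 among called features (SPL2), and most coloured points lie between the dotted lines.

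HSP12, HXK1, RTC3, DDR2 and HOR7 had the 5 lowest log2 fold changes of all 6833 features, and their promoters are shown for that reason. Capitals mark AGGGG or its reverse complement CCCCT. Sequences are those of the RefSeq R64 genome, read 5′ to 3′ on the gene's strand, with positions counted from the start codon. For HSP12 (chrVI:107006-107305, + strand), RTC3 (chrVIII:280570-280869, + strand) and DDR2 (chrXV:231706-232005, - strand) the stretch runs from 250 bases before to 50 bases after the start. For HXK1 (chrVI:255250-255549, - strand) and HOR7 (chrXIII:774252-774551, + strand), which hold no match in that window, it is the 300 bases that begin 500 bases before the start. That other stretch was chosen after the data were seen, so a match in all 5 sequences follows in part from the choice.
HSP12: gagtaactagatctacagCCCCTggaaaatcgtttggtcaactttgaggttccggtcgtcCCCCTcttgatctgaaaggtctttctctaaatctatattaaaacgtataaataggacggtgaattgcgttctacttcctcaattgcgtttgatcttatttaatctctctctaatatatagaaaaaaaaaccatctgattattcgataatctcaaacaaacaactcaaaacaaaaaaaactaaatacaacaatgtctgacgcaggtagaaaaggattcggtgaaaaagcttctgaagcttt
RTC3: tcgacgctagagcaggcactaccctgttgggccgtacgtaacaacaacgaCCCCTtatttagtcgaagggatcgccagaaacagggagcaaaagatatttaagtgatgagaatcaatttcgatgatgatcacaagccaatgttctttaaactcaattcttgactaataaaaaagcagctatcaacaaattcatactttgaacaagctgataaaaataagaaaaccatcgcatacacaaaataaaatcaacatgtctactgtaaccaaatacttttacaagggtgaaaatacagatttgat
DDR2: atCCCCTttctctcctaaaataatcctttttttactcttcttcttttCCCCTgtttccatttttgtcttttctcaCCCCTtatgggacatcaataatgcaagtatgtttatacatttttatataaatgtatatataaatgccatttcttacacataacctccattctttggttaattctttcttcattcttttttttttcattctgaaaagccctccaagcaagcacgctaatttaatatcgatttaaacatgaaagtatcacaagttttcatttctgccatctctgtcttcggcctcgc
HXK1: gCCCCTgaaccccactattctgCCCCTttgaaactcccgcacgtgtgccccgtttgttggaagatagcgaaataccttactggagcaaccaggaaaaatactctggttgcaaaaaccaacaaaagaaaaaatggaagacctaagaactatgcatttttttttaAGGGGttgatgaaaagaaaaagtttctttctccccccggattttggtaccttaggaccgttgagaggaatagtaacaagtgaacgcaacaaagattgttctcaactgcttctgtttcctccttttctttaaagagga
HOR7: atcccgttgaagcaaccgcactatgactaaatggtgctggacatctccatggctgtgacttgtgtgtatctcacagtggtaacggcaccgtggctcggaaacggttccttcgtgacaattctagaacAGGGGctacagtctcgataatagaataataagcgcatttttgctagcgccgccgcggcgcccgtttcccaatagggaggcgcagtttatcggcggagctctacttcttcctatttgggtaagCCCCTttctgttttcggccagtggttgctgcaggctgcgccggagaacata
HSP12 had matches at -232 and -190, RTC3 at -200 and DDR2 at -248, -203 and -175, while HXK1 had them at -499, -478 and -337 and HOR7 at -373 and -251.

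Over all 5983 promoters of 250 bases before to 50 after the start codon, 21.6% held AGGGG on either strand at least once. The share was 59.6% of 104 promoters of genes at least 2-fold lower in the double deletion, 30.8% of 1229 lower genes, 20.5% of 3560 genes not past the threshold, 15.7% of 1127 higher genes and 10.3% of 29 at least 2-fold higher genes. By number of matches in this window, 18.4% of 4630 genes with none were called lower, 27.1% of 1110 with 1, 40.1% of 147 with 2, 68.0% of 25 with 3 and 25.0% of 4 with 4 or more, a class too small to read. The longer window of 500 bases before the start was added after the data were seen, and in it 85.6% of the 104 promoters held a match, against 34.1% of all. By number of matches in these 500 bases, 17.5% of 3895 genes with none were called lower, 23.8% of 1537 with 1, 33.4% of 374 with 2, 44.6% of 83 with 3 and 74.1% of 27 with 4 or more. Called higher were 20.6% of genes without a match and 3.7% of those with 4 or more. A related element of stationary-phase genes, TAGGGA on either strand, was in 8.65% of the 104 promoters and 7.37% of all. The heat shock element, counted as GAA and TTC units 2 bases apart in either order, was in 19.2% of the 104 and 22.6% of all. A match is a string of letters and not a bound site.

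**Figure D2:**
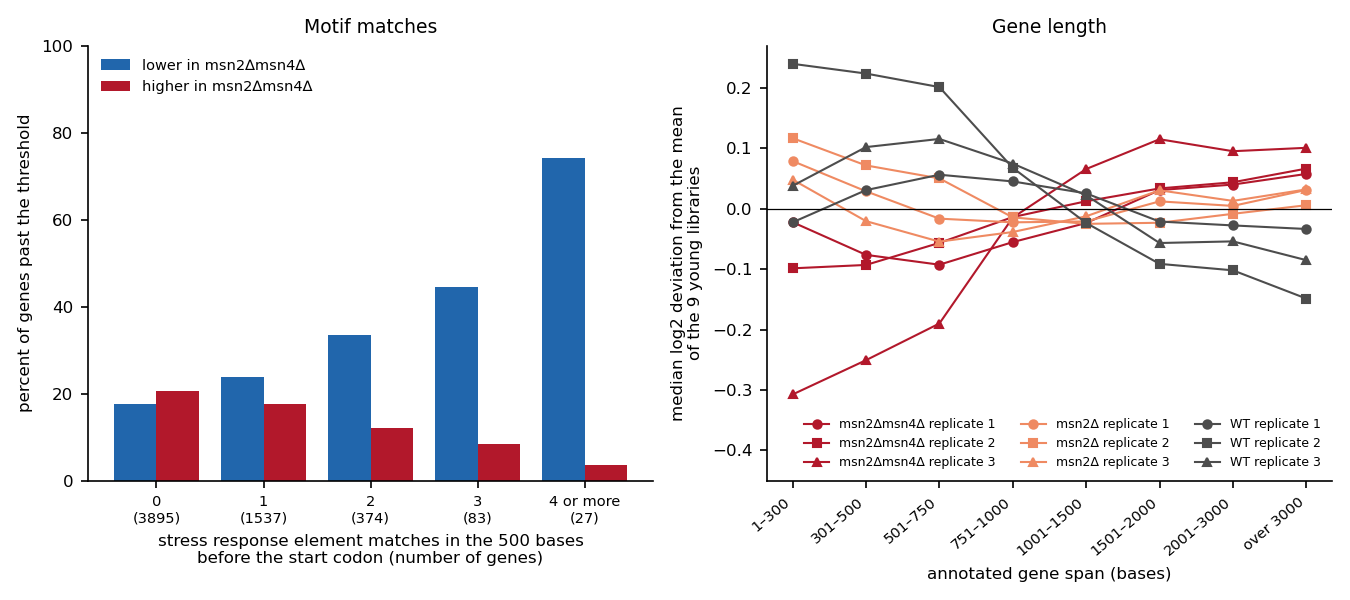
Left, percent of tested genes called lower or higher in young msn2∆msn4∆ than in young WT by the number of stress response element matches in the 500 bases before the start codon, with the number of genes in brackets. Right, for each young library, the median log2 deviation of genes in 8 classes of annotated span from the mean of the 9 young libraries. The share called lower is 17.5% with no match and 74.1% with 4 or more, and short genes lie lowest in replicate 3 of msn2∆msn4∆ and highest in replicate 2 of WT.

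Genes for small stress proteins and membrane-linked stress proteins were strongly lower. Of 20 tested members 13 were lower and 0 higher, with a median of -0.80 against -0.0075 over all features. Together they made up 0.106%, 0.106% and 0.128% of counts in the 3 double deletion libraries, against 0.448%, 0.486% and 0.476% in WT. Such a sum leans on its most abundant members, and HOR7, given below, took the largest part of it in WT. HSP12 (YFL014W, chromosome VI, 107256 to 107585), which codes for a small membrane-associated heat shock protein, stood at 9.13, 9.66 and 10.9 CPM in the double deletion, against 606, 786 and 698 CPM in WT. All double deletion libraries lay far below all WT libraries (-6.14 ± 0.149, adjusted p = 7.55e-16, 70.3-fold lower). DDR2 (YOL052C-A, chromosome XV, 231570 to 231755), a gene induced by many stresses, stood at 1.39, 0.445 and 0.913 CPM in the double deletion and 23.2, 31 and 26.8 CPM in WT (-4.92 ± 0.237, adjusted p = 2.11e-13). Its paralog HOR7 (YMR251W-A, chromosome XIII, 774752 to 774931), a small membrane protein of the osmotic response, stood at 293, 282 and 215 CPM in the double deletion and 3024, 4200.3 and 3325 CPM in WT (-3.74 ± 0.143, adjusted p = 4.18e-13). No group overlapped for these 3 genes. YGP1, a secreted cell wall glycoprotein, was lower at -2.50 ± 0.121, the small heat shock chaperone gene HSP42 at -1.54 ± 0.0959, and the membrane potential modulator PMP3 at -1.36 ± 0.147. The members that did not pass included the other small heat shock chaperone gene, HSP26, at 10.5, 11.4 and 10.0 CPM in the double deletion and 10.3, 15.1 and 12.4 CPM in WT (-0.24 ± 0.113, adjusted p = 0.102).

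**Figure D3:**
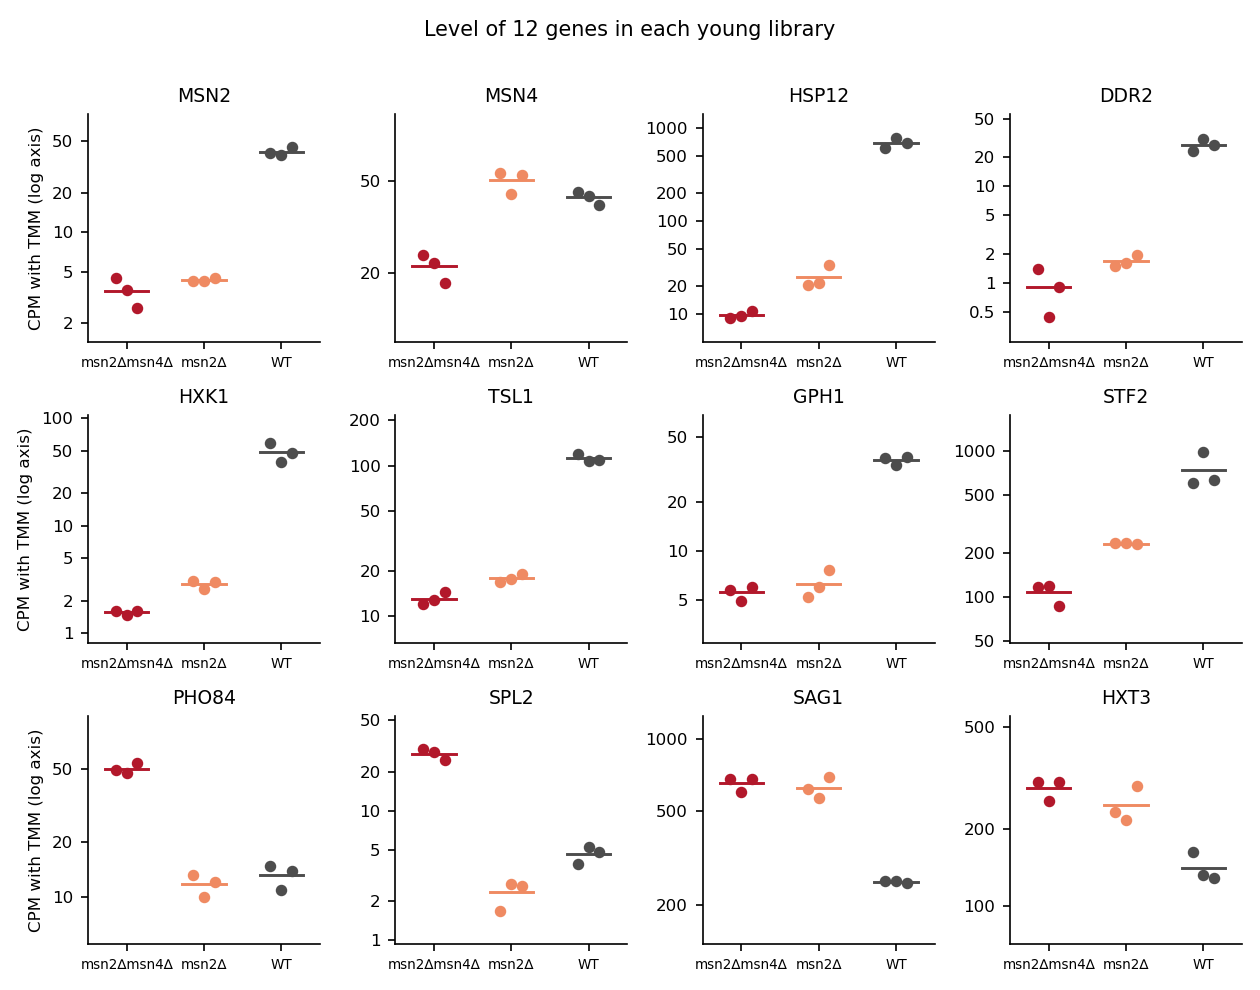
CPM with TMM factors (log axis) of 12 genes in the 3 libraries each of young msn2∆msn4∆, msn2∆ and WT, with bars at group means. HSP12, DDR2, HXK1, TSL1, GPH1 and STF2 are low in both deletion strains, SAG1 and HXT3 are high in both, and PHO84 and SPL2 are high in msn2∆msn4∆ only among the 3 genotypes drawn.

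Storage carbohydrate genes were lower. Trehalose is a disaccharide that protects membranes and proteins under stress, and 5 of the 7 tested trehalose genes were lower and 0 higher (median -1.15). TSL1 (YML100W, chromosome XIII, 70624 to 73920), a regulatory subunit of trehalose synthase, stood at 12, 12.9 and 14.4 CPM in the double deletion and 120.1, 108 and 109 CPM in WT (-3.10 ± 0.083, adjusted p = 7.55e-16). The groups were far apart. The catalytic subunits TPS2 and TPS1 were lower at -1.43 ± 0.0831 and -1.29 ± 0.146, the second regulatory subunit TPS3 at -0.54 ± 0.0721, and the neutral trehalase NTH1, which degrades trehalose, at -1.15 ± 0.0865. Genes for making and for breaking down the sugar were thus both lower. The second neutral trehalase gene NTH2 (-0.20 ± 0.102) and the acid trehalase gene ATH1 (-0.12 ± 0.093) did not pass, but with the length trend removed both were called lower (-0.31 and -0.27).

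Glycogen genes showed the same pattern, with 9 lower and 1 higher of 15 tested (median -0.62). Glycogen phosphorylase, which releases glucose from glycogen, is encoded by GPH1 (YPR160W, chromosome XVI, 861306 to 864014), at 5.79, 4.93 and 6.04 CPM in the double deletion and 37.2, 33.6 and 37.7 CPM in WT (-2.70 ± 0.115, adjusted p = 4.18e-13). The GPH1 groups were far apart. Both genes for glycogen synthase were lower, GSY2 at -1.64 ± 0.0728 and GSY1 at -1.36 ± 0.147. PGM2 and UGP1, which turn glucose 6-phosphate into UDP-glucose for both storage sugars, were lower at -1.58 ± 0.0832 and -0.77 ± 0.0817, and the branching enzyme gene GLC3 at -0.62 ± 0.0944. IGD1, a small inhibitor of the debranching enzyme, was lower at -2.01 ± 0.227, while the gene for that enzyme, GDB1, did not pass (-0.29 ± 0.133), except as lower with the length trend removed (-0.47). The 1 higher member was PIG2, a putative phosphatase targeting subunit, at 0.43 ± 0.159 (adjusted p = 0.0402), whose call was lost in 4 of the 6 fits without 1 library and with the length trend removed (adjusted p = 0.124). The features YPR160W-A and YPR160C-A, named for the GPH1 locus, and YKL036C, named for the UGP1 locus, were lower too. The counting options are not given, so these features may share reads with the gene.

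Sugar phosphorylation and sugar phosphate genes divided between isoforms. Among 22 hexose kinase and pentose phosphate genes 8 were lower and 4 higher (5 in each direction with library totals). HXK1 (YFR053C, chromosome VI, 253592 to 255049), the hexokinase isoform of cells short of glucose, stood at 1.61, 1.47 and 1.62 CPM in the double deletion and 59, 39.4 and 47.8 CPM in WT (-4.96 ± 0.183, adjusted p = 7.74e-15, 31.1-fold lower). Its paralog HXK2, the main hexokinase on glucose, stood at 416, 470.0 and 529 CPM in the double deletion and 392, 326 and 394 CPM in WT (0.35 ± 0.116, adjusted p = 0.0233). For HXK1 the groups were wide apart, whereas HXK2 was slightly higher and lost its call without replicate 3 of the double deletion or replicate 2 of WT (adjusted p up to 0.112). The glucokinase gene GLK1 was lower at -2.41 ± 0.0927 and its paralog EMI2 at -1.15 ± 0.102.

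The same split ran through several other pairs. SOL4, a 6-phosphogluconolactonase, was lower at -3.48 ± 0.159, while its paralog SOL3 stood at -0.05 and did not pass. NQM1, a paralog of the transaldolase gene TAL1, was lower at -1.22 ± 0.0833 and TAL1 itself at -0.26 ± 0.0873 (adjusted p = 0.0242, lost in 3 of the 6 fits without 1 library). The minor transketolase gene TKL2 was lower (-0.48 ± 0.139) and the major one, TKL1, higher (0.37 ± 0.0763). GND2, for the minor 6-phosphogluconate dehydrogenase, did not pass in young cells (-0.23 ± 0.139), and the major gene GND1 was higher (0.44 ± 0.0826). In glycolysis 5 of 19 genes were lower and 5 higher (3 lower and 5 higher with library totals). TDH1, a minor glyceraldehyde 3-phosphate dehydrogenase gene, stood at 8.03, 7.88 and 8.99 CPM in the double deletion and 35.5, 31 and 30.8 CPM in WT (-1.97 ± 0.0949, adjusted p = 4.49e-12). The groups did not overlap for TDH1, while its paralogs TDH2 and TDH3 stood at 0.26 ± 0.0924 (adjusted p = 0.0349) and 0.14 ± 0.108 (adjusted p = 0.308). GPM2, a homolog of the phosphoglycerate mutase gene GPM1, was lower at -1.47 ± 0.128, and GPM1 did not pass (-0.16). ENO1 was lower (-0.69 ± 0.0944) and ENO2 higher (0.42 ± 0.105), for the 2 enolase isoforms. The differences between the members of a pair were not tested as such. HXT7 is nearly identical to HXT6 (log2 0.74, not past the threshold), so the counts of both depend on how reads were shared out.

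**Figure D4:**
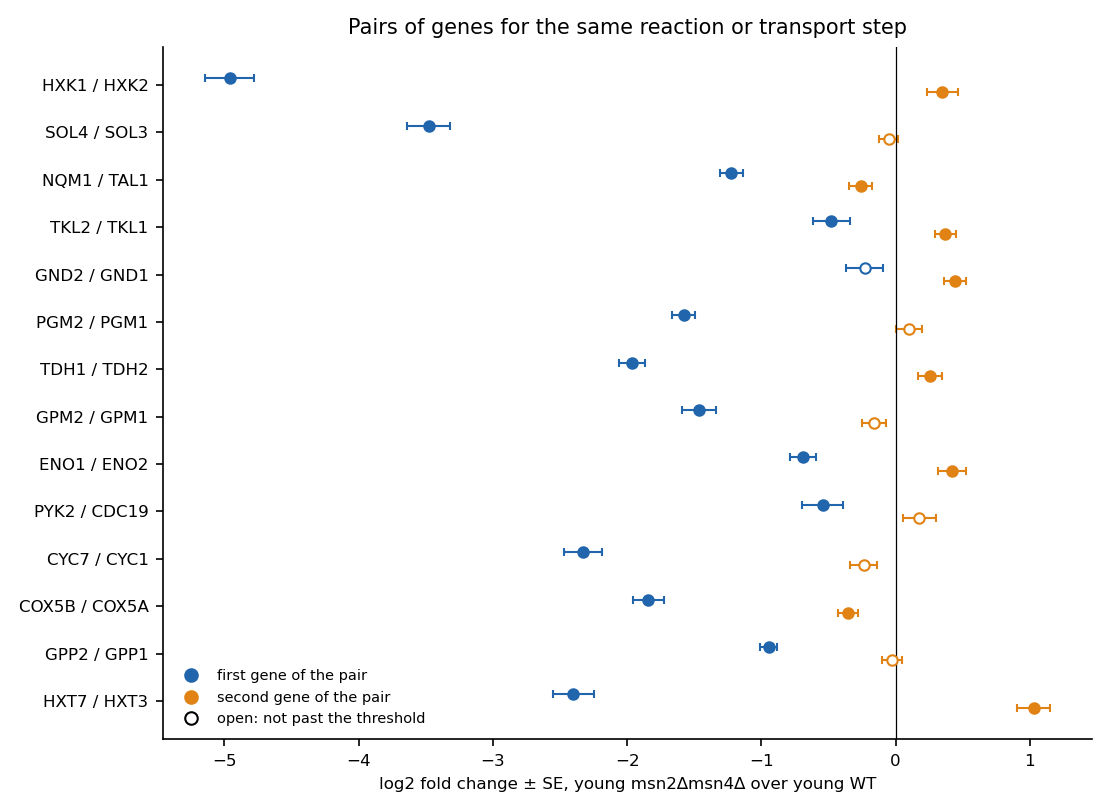
Log2 fold change ± SE of young msn2∆msn4∆ over young WT for 14 pairs of genes that serve the same reaction, subunit position or transport step, with open symbols where the adjusted p is not under 0.05. The first gene of each pair lies to the left of the second in all 14 pairs drawn, for example HXK1 at -4.96 and HXK2 at 0.35 or TKL2 at -0.48 and TKL1 at 0.37, and 13 of the first genes are called lower. Pairs were chosen with the values known and drawn with the lower gene first, so this order follows from the choice.

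Among 39 other stress genes, 29 were lower and 2 higher (median -0.68), and AGGGG stood in 74.4% of their promoters. RTC3 (YHR087W, chromosome VIII, 280820 to 281155) stood at 2.71, 3.15 and 2.46 CPM in the double deletion and 76.1, 98.1 and 83.8 CPM in WT (-4.95 ± 0.144, adjusted p = 7.55e-16). STF2 (YGR008C, chromosome VII, 508110 to 508364), a small hydrophilic protein linked to ATP synthase and to survival of drying, stood at 117, 119 and 87.3 CPM in the double deletion and 602, 982 and 637 CPM in WT (-2.78 ± 0.178, adjusted p = 7.54e-10). PNC1 (YGL037C, chromosome VII, 427297 to 427947), the nicotinamidase that recycles nicotinamide to NAD, stood at 42.9, 46 and 49.6 CPM in the double deletion and 252, 267 and 283 CPM in WT (-2.53 ± 0.0809, adjusted p = 9.73e-15). In all 3 genes every double deletion library was below every WT library. TMA10, a paralog of STF2, was lower at -2.89 ± 0.166, RGI1, needed for respiratory growth, at -2.77 ± 0.165, the protease inhibitor genes PBI2 and PAI3 at -1.54 ± 0.188 and -1.14 ± 0.122, and the polyubiquitin gene UBI4 at -1.29 ± 0.0664. Counts of YER066C-A and YER067C-A, which by name lie opposite RGI1, tracked those of RGI1 across libraries, so these features are not separate findings. The higher members were PYC1, pyruvate carboxylase (0.43 ± 0.0799), and CPS1, a vacuolar carboxypeptidase (0.57 ± 0.102).

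Antioxidant genes were lower in 16 and higher in 2 of 35 cases, and in 11 and 6 of 35 with the length trend removed. With library totals 9 were lower and 4 higher. CTT1, cytosolic catalase T, stood at 8.62, 8.56 and 7.52 CPM in the double deletion and 20.4, 28.1 and 19 CPM in WT (-1.45 ± 0.134, adjusted p = 7.69e-08). The copper-zinc superoxide dismutase gene SOD1 stood at 584, 594 and 613 CPM in the double deletion and 1089.6, 1393 and 1241 CPM in WT (-1.05 ± 0.0912, adjusted p = 3.56e-08). Neither gene had overlapping groups. GAD1, glutamate decarboxylase, was lower at -2.17 ± 0.0903, the glutaredoxin genes GRX2 and GRX1 at -1.53 ± 0.134 and -1.01 ± 0.146, and the mitochondrial superoxide dismutase gene SOD2 at -0.94 ± 0.0948. Thioredoxin genes TRX1 and TRX2 (0.01 and -0.10), the peroxiredoxin gene TSA1 (-0.10) and the peroxisomal catalase gene CTA1 (0.05) did not pass. Among glycerol and osmotic genes 5 of 17 were lower, led by the glycerol phosphatase gene GPP2 (-0.95 ± 0.0654) and the glycerol phosphate dehydrogenase gene GPD1 (-0.64 ± 0.0806), and 3 were higher (4 lower and 6 higher with library totals), including the sodium pump gene ENA1 (0.53 ± 0.113).

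Further genes at least 2-fold lower and in none of these lists were picked from the 119 after their values were seen. NNR1 and NNR2, which repair hydrated NADH and NADPH, were lower at -1.37 ± 0.0871 and -1.19 ± 0.0856, and BNA1, of NAD synthesis from tryptophan, at -1.17 ± 0.0993. MCR1, mitochondrial cytochrome b5 reductase, was lower at -1.45 ± 0.0839, the mitochondrial outer membrane protein gene OM14 at -1.44 ± 0.115, and the eisosome core gene LSP1 at -1.07 ± 0.0846. CIN5, a transcription factor of the salt response, was lower at -1.32 ± 0.0824, and GSP2, a paralog of the Ran GTPase gene GSP1, at -1.26 ± 0.074. Of the 119, 41 belonged to the 155 tested genes of the stress lists described above.

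Nuclear genes of the respiratory chain and ATP synthase were lower in 28 of 39 cases and higher in 0 (median -0.46). These genes are short, with a median span of 444 bases, and 25 were lower with the length trend removed (median -0.33). The isoform genes led: COX5B, the hypoxic isoform of a cytochrome oxidase subunit, stood at 79.8, 81.4 and 63.5 CPM in the double deletion and 251, 298 and 257 CPM in WT (-1.84 ± 0.115, adjusted p = 2.9e-10). CYC7, the minor cytochrome c isoform, stood at 11.6, 10.7 and 8.68 CPM in the double deletion and 47.7, 64.8 and 43.1 CPM in WT (-2.33 ± 0.142, adjusted p = 1.6e-10). Neither overlapped, and the counterpart COX5A stood at -0.35 ± 0.0776, a call lost with the length trend removed, while CYC1 stood at -0.24 ± 0.102 (adjusted p = 0.075). INH1, an inhibitor of ATP synthase, was lower at -1.64 ± 0.11. Outside the list, its paralog STF1 and COX26, a small cytochrome oxidase subunit, were lower at -1.44 ± 0.12 and -2.80 ± 0.208. In the TCA cycle 7 of 17 genes were lower and 2 higher (2 lower and 3 higher with library totals), among them CIT1 for mitochondrial citrate synthase (-0.47 ± 0.119) and SDH3 of succinate dehydrogenase (-0.66 ± 0.0892), while the aconitase gene ACO1 was higher (0.66 ± 0.0783). Of 8 mitochondrially encoded genes only VAR1 passed, as higher (0.59 ± 0.198), and its call was lost in 3 of the 6 fits without 1 library.

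Cytosolic ribosomal protein genes were lower in 81 of 138 cases and higher in 2 (median -0.33), none by 2-fold. RPL20B had the lowest fold change at -0.87 ± 0.179, and RPS20 stood at -0.82 ± 0.16. With the length trend removed 54 were lower and 5 higher, and with library totals 52 were lower and 7 higher. All 10 histone genes were lower, from HHF1 at -0.76 ± 0.119 to HHO1 at -0.29 ± 0.101 (median -0.50), but 6 of 10 with the length trend removed and 7 of 10 with library totals. Their median span was 399 bases. The part of gene length in these small differences was not tested. Near-identical copies of ribosomal protein and histone genes share reads. Ribosome biogenesis genes, which are longer, were higher in 21 (21.4%) and lower in 17 (17.3%) of 98. Both shares were near those over all features, 17.9% higher and 19.9% lower. With the length trend removed 10 of these genes were higher and 18 lower, and library totals gave 33 higher and 7 lower. Mitochondrial ribosomal protein genes were lower in 22 and higher in 3 of 70. With the length trend removed 15 of them were lower and 8 higher, and with library totals 13 were lower and 10 higher.

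**Figure D5:**
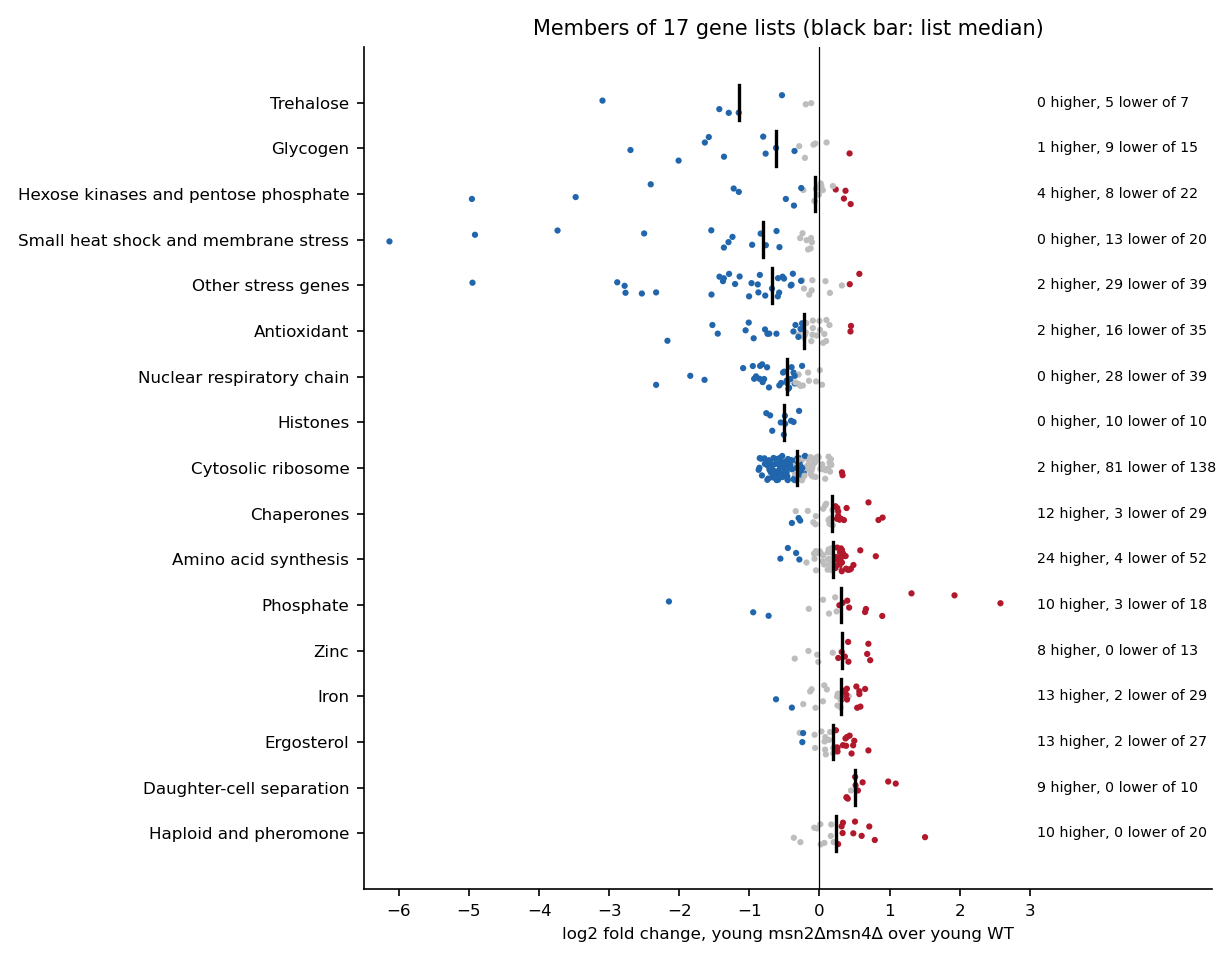
Log2 fold changes of young msn2∆msn4∆ over young WT (horizontal axis) of the members of 17 gene lists, blue where called lower, red where called higher and grey otherwise, with the list median as a black bar. Storage sugar and stress lists reach far to the left, while histone and ribosomal protein genes stay between -1 and 0.4, and members of the lists of amino acid, zinc, iron, ergosterol and daughter genes lie mostly to the right of 0.

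Regulators of Msn2 and Msn4 were also measured. Of 31 genes of the protein kinase A, TOR and Msn2/4 signalling list 11 were lower and 3 higher, the deleted genes being 2 of the 11. RAS2 (-0.80 ± 0.0757) and RAS1 (-0.39 ± 0.0664), GTPases that activate adenylate cyclase, were lower, as were TPK2, a catalytic subunit of protein kinase A (-0.64 ± 0.0932), and PDE2, which degrades cyclic AMP (-0.40 ± 0.101). RAS2 stood at 138, 149 and 154 CPM in the double deletion and 261, 252 and 255 CPM in WT, with no overlap. The Ras-inhibiting GAP genes IRA1 and IRA2 were higher (0.56 ± 0.0822 and 0.34 ± 0.0781), IRA2 losing its call with the length trend removed. With library totals 7 of the list were lower and 10 higher. YAK1, a kinase that acts against growth, was lower (-0.58 ± 0.104), while the kinase gene RIM15 and the export receptor gene MSN5 did not pass (0.17 and 0.17).

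Chaperones outside the small heat shock group did not follow the stress genes: of 29 genes of the Hsp70, Hsp90, Hsp100 and chaperonin classes 12 were higher and 3 lower, none by 2-fold. Without replicate 3 of WT 7 were higher, and over the 6 fits without 1 library 7 to 11 were higher and 1 or 2 lower. HSP104, the disaggregase, stood at 256, 247 and 220.5 CPM in the double deletion and 274, 257 and 238 CPM in WT, and the groups overlapped (-0.09 ± 0.0741, adjusted p = 0.371). KAR2, the Hsp70 of the endoplasmic reticulum, stood at 887, 815 and 861 CPM in the double deletion and 487, 463 and 424 CPM in WT (0.90 ± 0.0787, adjusted p = 3.87e-08). The Hsp110 gene SSE1 stood at 1867, 1724 and 1623 CPM in the double deletion and 902, 1094 and 913 CPM in WT (0.84 ± 0.0871, adjusted p = 4.53e-07). Both were higher in all 3 double deletion libraries than in any WT library. SIS1, an Hsp40, and BTN2, which sorts misfolded proteins, were higher at 0.39 ± 0.0706 and 0.70 ± 0.103. With the length trend removed 7 of the 29 were higher and 4 lower, HSP104 among the lower ones (-0.21).

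Phosphate genes included SPL2, the feature with the highest fold change of all that were called. Of 18 tested 10 were higher and 3 lower (median 0.31), and 3 were at least 2-fold higher. SPL2 (YHR136C, chromosome VIII, 374654 to 375100), which restrains low-affinity phosphate uptake, stood at 29.8, 28.4 and 24.8 CPM in the double deletion, 1.67, 2.72 and 2.62 CPM in msn2∆ and 3.83, 5.27 and 4.74 CPM in WT (2.58 ± 0.16 over WT, adjusted p = 1.86e-10). PHO84 (YML123C, chromosome XIII, 24037 to 25800), the high-affinity phosphate transporter, stood at 49.5, 47.6 and 53.8 CPM in the double deletion, 13.3, 10.0 and 12.1 CPM in msn2∆ and 14.7, 11 and 13.9 CPM in WT (1.93 ± 0.113, adjusted p = 8.72e-11). The double deletion was above both other strains in every library, whereas msn2∆ overlapped WT for PHO84 and was below it for SPL2. The acid phosphatase gene PHO12 was higher at 1.31 ± 0.144, and PHO11, which is nearly identical to it, at 0.66 ± 0.18. PHO86, needed for Pho84 to leave the endoplasmic reticulum, was higher at 0.65 ± 0.0793, GIT1, a glycerophosphoinositol permease, at 0.90 ± 0.272 (lost without replicate 3 of WT), and VTC3, of the polyphosphate polymerase, at 0.40 ± 0.126 (lost without replicate 3 of the double deletion or replicate 2 of WT, and with the length trend removed). PHO5 (0.05 ± 0.0873) and PHO89 (0.14 ± 0.313) did not pass. The 3 lower members were PHM8, a nucleotide phosphatase gene also known from stress (-2.15 ± 0.11), GPP2 and CTF19 (-0.73 ± 0.141), a kinetochore gene.

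Phosphate genes are known to be switched on by Pho4, a factor that binds CACGTG, so the promoters of PHO84 (chrXIII:26001-26300, - strand, 300 bases from 500 bases before the start) and SPL2 (chrVIII:375051-375350, - strand, 250 bases before to 50 after it) are shown with that hexamer in capitals. This motif was looked for after the values were seen.
PHO84: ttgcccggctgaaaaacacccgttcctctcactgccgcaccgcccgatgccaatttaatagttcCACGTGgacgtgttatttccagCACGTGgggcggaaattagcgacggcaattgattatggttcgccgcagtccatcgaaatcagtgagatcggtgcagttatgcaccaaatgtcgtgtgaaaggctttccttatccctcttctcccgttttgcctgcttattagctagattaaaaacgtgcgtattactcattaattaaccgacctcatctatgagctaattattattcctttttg
SPL2: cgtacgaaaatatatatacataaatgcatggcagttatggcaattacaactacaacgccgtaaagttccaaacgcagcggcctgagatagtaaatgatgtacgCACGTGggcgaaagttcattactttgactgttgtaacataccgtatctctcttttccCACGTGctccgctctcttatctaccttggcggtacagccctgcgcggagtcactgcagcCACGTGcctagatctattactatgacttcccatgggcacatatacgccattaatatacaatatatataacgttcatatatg
PHO84 had matches at -436 and -414 and SPL2 at -147, -90 and -31 in the stretches shown. In the 500 bases before the start CACGTG was in 15 of 18 phosphate promoters and in 6.17% of all 5983. In the same 500 bases AGGGG was in the promoters of PHO8, GIT1 and GPP2 (1 match each) and PHM8 (3), and in 34.1% of all. In the shorter window CACGTG was in the promoters of PHO86, SPL2, VTC1 and VTC4, and AGGGG was in 1 of the 18. PHO89 and PHO5, which did not pass, each had 1 match of CACGTG. Among the members called lower, GPP2 had 1 match, CTF19 had 2 and PHM8 had 0.

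Several lists of nutrient transport and metabolism had more members called higher than lower, against 17.9% called higher and 19.9% lower over all features. The low-affinity glucose transporter gene HXT3 stood at 304, 257 and 303 CPM in the double deletion and 163, 132 and 129 CPM in WT (1.03 ± 0.121, adjusted p = 2.54e-06), with no overlap. The high-affinity transporter gene HXT7 was lower at -2.40 ± 0.151, and of 18 hexose transporters 4 were higher (22.2%, near the share over all features) and 1 lower, or 7 and 2 without replicate 1 of WT. Amino acid synthesis genes were higher in 24 and lower in 4 of 52, led by glutamine synthetase, GLN1, at 303, 318 and 344 CPM in the double deletion and 185, 178 and 189 CPM in WT (0.80 ± 0.0773, adjusted p = 1.59e-07). Arginine genes were higher in 9 and lower in 2 of 16, with the argininosuccinate synthase gene ARG1 at 0.47 ± 0.0891, and purine genes were higher in 9 and lower in 0 of 21, with ADE17 at 0.51 ± 0.0758. Zinc genes were higher in 8 and lower in 0 of 13, where the transporters ZRT1, ZRT2 and ZRT3 stood at 0.72 ± 0.103, 0.70 ± 0.0958 and 0.68 ± 0.0962. Iron genes were higher in 13 and lower in 2 of 29, with the siderophore transporter SIT1 at 0.65 ± 0.0827 and the vacuolar iron oxidase FET5 at 0.58 ± 0.0808, and FIT2, a cell wall mannoprotein, lower at -0.62 ± 0.14. Ergosterol genes were higher in 13 and lower in 2 of 27, with the regulator ECM22 at 0.70 ± 0.0772 and ERG11 at 0.50 ± 0.127. Apart from HXT3 no member of these lists was 2-fold higher. Each list was still higher in more members than it was lower with the length trend removed. Library totals move the median over all features to 0.16, so they cannot test a lean to the higher side.

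CIT2 and DLD3, both known targets of retrograde signalling from mitochondria, were about 2-fold higher. CIT2, peroxisomal citrate synthase, stood at 194, 199 and 177 CPM in the double deletion, 134, 156 and 138 CPM in msn2∆ and 93.7, 92.1 and 95.9 CPM in WT (1.02 ± 0.0793, adjusted p = 6.94e-09). DLD3, a cytosolic 2-hydroxyglutarate transhydrogenase, stood at 261, 233 and 241 CPM in the double deletion, 194, 195 and 194 CPM in msn2∆ and 110.0, 116 and 108 CPM in WT (1.14 ± 0.069, adjusted p = 1.4e-10). For both genes the 3 strains formed separate steps, highest in the double deletion and lowest in WT. FAA3, an acyl-CoA synthetase gene, and FET4, a low-affinity iron transporter gene, were higher at 1.02 ± 0.0676 and 0.99 ± 0.0745.

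Several mating and cell separation genes were higher. SAG1 (YJR004C, chromosome X, 442909 to 444861), alpha-agglutinin of the cell surface, stood at 682, 600.4 and 681 CPM in the double deletion and 254, 254 and 248 CPM in WT (1.38 ± 0.0907, adjusted p = 5.49e-10). The a-factor receptor gene STE3 stood at 410.2, 374 and 385 CPM in the double deletion and 202, 199.9 and 201 CPM in WT (0.96 ± 0.0849, adjusted p = 4.79e-08). Both were higher without overlap, while MATALPHA1, the alpha regulator, did not pass (-0.03 ± 0.279). Of 7 tested alpha-specific genes 3 were higher and 0 lower, with a median of -0.03. Of 7 a-specific genes 0 were higher and 2 lower (3 higher and 2 lower with library totals). These were the a-factor genes MFA2 (-1.20 ± 0.261, adjusted p = 0.00122) and MFA1 (-0.96 ± 0.312, adjusted p = 0.0179), and MFA1 lost its call without replicate 1 of the double deletion or replicate 2 of WT and with the length trend removed (adjusted p = 0.0796). Of 20 haploid and pheromone genes 10 were higher and 0 lower, among them the cell fusion gene FUS1 (0.79 ± 0.0922) and the a-agglutinin anchor gene AGA1 (0.71 ± 0.112). Daughter-cell separation genes were higher in 9 of 10, all except PRY3 (0.45). DSE4 and SCW11, glucanases that part mother and daughter, stood at 1.09 ± 0.0769 and 0.98 ± 0.082, and the chitinase gene CTS1 at 0.62 ± 0.128. These are also markers of newborn daughter cells, and in RNA from whole cultures more cells of a type and more RNA per cell cannot be told apart. The cell cycle list had 8 higher and 6 lower of 24, but 10 and 1 with library totals, 6 and 6 with the length trend removed, and 5 higher without replicate 3 of WT. Among its members were SIC1, the late mitosis and G1 inhibitor, at 0.64 ± 0.0769, and CLB1, a mitotic cyclin, at -0.48 ± 0.0766.

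Cell wall genes were higher in 12 and lower in 4 of 26. The mannoprotein gene TIP1 and the glucan synthase gene FKS1 were higher at 0.92 ± 0.0948 and 0.53 ± 0.114, whereas the mannoprotein genes CWP1 and SPI1, the second of them a known Msn2/4 target, were lower at -1.29 ± 0.0895 and -1.30 ± 0.148. Over all features 17.9% were called higher and 19.9% lower. Among subtelomeric families 7 of 29 were higher (24.1%), 6 of them by 2-fold, and 1 was lower (3.45%). COS12 stood at 24.8, 26.9 and 17.3 CPM in the double deletion and 6.08, 5.86 and 5.09 CPM in WT (2.02 ± 0.164, adjusted p = 1.15e-08). Copies of the COS and PAU families are nearly identical, so reads may be shared between them. Of 21 stationary-phase genes, markers of cells past glucose exhaustion, 2 were higher (9.52%) and 4 lower (19.0%, near the share over all features). With library totals 5 were higher and 3 lower, and with the length trend removed 4 in each direction. JEN1 and ADH2 stood at 0.15 and 0.23, and FMP45 was lower at -1.55 ± 0.192. Other lists had mixed counts. DNA damage genes were lower in 6 and higher in 1 of 16 (2 and 3 with library totals), with HUG1, an inhibitor of ribonucleotide reductase, at -0.97 ± 0.181, autophagy genes lower in 5 and higher in 3 of 25 (3 and 7 with library totals, 5 and 0 with the length trend removed), with the nuclear autophagy receptor ATG39 at -1.64 ± 0.142, and proteasome genes 3 in each direction of 34. The proteasome counts were 8 higher and 1 lower with library totals, 5 and 1 with the length trend removed, and 1 lower without replicate 3 of the double deletion or replicate 3 of WT.

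A direct comparison with msn2∆ showed where loss of MSN4 was accompanied by a further difference. Between the young double deletion and young msn2∆ 31 features passed (0.454%), 9 higher (0.132%) and 22 lower (0.322%) in the double deletion, and 865 were at an unadjusted p under 0.05. Against WT, msn2∆ alone had 2084 calls (30.5%), a comparison that shares its WT libraries with the one above. For the 119 features at least 2-fold lower in the double deletion than in WT, the median log2 fold change was -1.37 in the double deletion and -1.08 in msn2∆, and 18 of them passed the direct test. The 119 were chosen by their size in these same double deletion libraries. That by itself favours a smaller median in msn2∆ and lower values in the direct test. HSP12 stood at 20.5, 21.8 and 34.1 CPM in msn2∆, above every double deletion library and far below WT (double deletion over msn2∆ -1.36 ± 0.154, adjusted p = 5.36e-05). STF2 stood at 233, 236 and 229.6 CPM in msn2∆ (-1.11 ± 0.179, adjusted p = 0.00351), HOR7 at 566, 562 and 577 CPM (-1.11 ± 0.143, adjusted p = 0.000356) and RTC3 at 7.3, 5.12 and 6.11 CPM (-1.16 ± 0.159, adjusted p = 0.000434). In these 4 genes msn2∆ lay between the double deletion and WT. The direct comparison also had a length trend, with a median of -0.26 for genes of up to 300 bases and -0.17 for those of 300 to 500. With that trend removed 9 features were higher and 18 lower, and 2 rather than 5 were at least 2-fold lower. The part of gene length in these steps was not tested.

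Smaller steps of this kind were found for COX5B (-0.80 ± 0.116), CYC7 (-0.83 ± 0.148), SOL4 (-0.84 ± 0.182), TSL1 (-0.45 ± 0.0876) and PNC1 (-0.40 ± 0.0821), all of which passed. Genes such as GPH1 (-0.17 ± 0.129), TPS2 (0.04 ± 0.0851), PGM2 (-0.07 ± 0.0868) and GAD1 (-0.12 ± 0.0986) did not pass the direct test, with adjusted p from 0.592 to 0.857. The 9 features higher in the double deletion than in msn2∆ were led by the phosphate genes SPL2 (3.57 ± 0.18, adjusted p = 7.9e-11), PHO84 (2.09 ± 0.114, adjusted p = 3.35e-10), PHO12 (1.07 ± 0.142) and VTC3 (0.66 ± 0.127). The rest included ACO1 (0.50 ± 0.0782), ARG1 (0.49 ± 0.0892), CIT2 (0.41 ± 0.079) and DLD3 (0.34 ± 0.0687). All 9 were also higher than in WT, and MSN4 was among the 22 lower ones (-1.24 ± 0.0981). SAG1, STE3 and HXT3 did not pass (0.07 ± 0.0905, 0.07 ± 0.0847 and 0.22 ± 0.12). DESeq2 called 85 features and the fit on these 6 libraries alone 13, so the number of genes in this set depends on the method.

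Aged cells showed which of the young differences were of another size after 24 h. Of the 119 features at least 2-fold lower in young double deletion cells 105 were also lower in aged double deletion cells against aged WT, and 90 of them by at least 2-fold. That comparison of aged cells had 2478 calls (36.3%), 19.7% lower and 16.6% higher, with 3.26% at least 2-fold lower and 0.629% at least 2-fold higher. The 119 and the 35 were chosen by their size in young cells, which by itself favours a smaller median elsewhere. The median of the 119 was -1.57 in aged and -1.37 in young cells. Of the 35 at least 2-fold higher, 15 were also higher in aged cells, 9 of them at least 2-fold, with a median of 0.51 in aged and 1.22 in young cells. Low counts weigh more on the 35 than on the 119. When at least 10 CPM in 3 libraries was required, 17 features were at least 2-fold higher in young cells and 107 at least 2-fold lower. The difference between the 2 ages passed for 1104 features (16.2%), with the aged difference above the young one in 490 (7.17%) and below it in 614 (8.99%). Among them were 55 of the 119, where the aged difference was larger in 37 and smaller in 18, and 13 of the 35, all smaller in aged cells. HSP12 stood at -4.10 ± 0.142 in aged and -6.14 ± 0.149 in young cells, and PGM2 at -3.11 ± 0.0994 in aged and -1.58 ± 0.0832 in young cells. GND2 and HSP26, which did not pass in young cells, stood at -2.63 ± 0.142 and -2.46 ± 0.102 in aged cells. PHO84 stood at 1.81 ± 0.115 in aged and 1.93 ± 0.113 in young cells (adjusted p of the difference 0.675), while CIT2 stood at 0.01 ± 0.0793 in aged and 1.02 ± 0.0793 in young cells. The 3 aged double deletion libraries held 4078400 to 7136185 counts, fewer than any other group. Age also goes with how the cells were grown and harvested, and these cannot be told apart.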

How the data were processed

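PolyA RNA was sequenced as paired reads from 18 libraries, 3 in each of 6 groups by genotype and age. The authors deposited estimated counts for 7118 features, one column a library, of which 54.6% of the values above 0 were not whole (tolerance 0.001). Tools listed in the submitters' processing notes are STAR 2.7.6a, Subread 1.6.2 with its featureCounts, cutadapt 2.6 and bcl2fastq. The counting options, strand included, are not given in the sources used here. Counts were rounded. Features with low counts were removed (filterByExpr), which left 6833. edgeR 4.0.16 (R 4.3.3, limma 3.58.1) fitted all 18 libraries with TMM factors, 1 mean a group and 12 residual degrees of freedom, and its quasi-likelihood test was adjusted by the Benjamini-Hochberg method at 0.05. Of the IDs 6040 matched the annotation of R64, and 1078 took no coordinates. Promoters were read from the RefSeq R64 genome.

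The comparisons, the 42 gene lists and the named genes were chosen with earlier results of these data known. Named were the deleted genes and their neighbours, the 20 highest and 20 lowest fold changes (mean log2 CPM of at least 3, groups not overlapping), list members at least 2-fold different or among the 4 smallest p of their list, and paralogs of those; further members of lists, the neighbouring features and the genes outside all lists were added after their values were seen. Alternatives were RLE factors, library totals, other filters, a replicate block, subsets of libraries, leaving out each library, DESeq2 1.42.0, and, chosen after seeing the data, removal of a gene length trend (loess, span 0.5), leaving out all 3 libraries of aged double deletion cells, a window of 500 bases and the CACGTG motif. Scripts were tested on simulated data. Replicate numbers did not pair samples: deviations of same-numbered young double deletion and WT libraries correlated at -0.33, 0.2 and 0.0919.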

Additional observations from a re-analysis of the deposited data

Results flagged for a closer look

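The difference between the double deletion and WT was not the same size in aged and young cells for 1104 features by the test of the difference itself (edgeR's quasi-likelihood test), and the named ones among them follow as log2 values of the aged minus the young difference. A positive value means that the aged difference lay above the young one.

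Among the strongly lower stress genes, the aged difference was smaller for HSP12 (2.03), TMA10 (1.83), DDR2 (1.65), RTC3 (1.34), HXK1 (1.18), HOR7 (1.03) and HXT7 (0.67). It was larger for RGI1 (-1.59) and its opposite-strand features YER067C-A (-1.71) and YER066C-A (-1.31), for the glycogen phosphorylase gene GPH1 (-1.16), for SOL4 (-1.04) and STF2 (-0.87), and less so for TSL1 (-0.49) and GLK1 (-0.43).

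Of the 35 features at least 2-fold higher in young double deletion cells, 13 had a smaller difference in aged cells by this test. The named genes that were higher in young cells and had a smaller aged difference were YLR342W-A (-1.29), COS8 (-1.18), the Ty feature YDR261C-D (-1.12), COS12 (-1.07), CIT2 (-1.01), YOL103W-B (-0.83), YHR063W-A (-0.83), DLD3 (-0.82), HUR1 (-0.82), YOR169C (-0.61), STE3 (-0.48), DSE4 (-0.47), SCW11 (-0.41) and FET4 (-0.31).

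Further negative differences belonged to GND2 (-2.4), SIP18 (-2.23), the small heat shock gene HSP26 (-2.22), EGO4 (-2.11), HSP30 (-2.1), YFR052C-A (-1.77) and YMR090W (-1.67). Further positive ones belonged to RRT15 (11.97), YOR387C (2.15), VEL1 (2.0), HUG1 (1.87) and YDL062W (1.47). RRT15, within the ribosomal DNA of chromosome XII, averaged 3076 ± 525 CPM in aged double deletion cells and 1.26 ± 0.446 CPM in aged WT cells, against 0.85 ± 0.132 CPM in young double deletion cells and 1.42 ± 0.148 CPM in young WT cells (SD, n = 3 each). The 3 aged double deletion libraries were also the shallowest of the study, and the part of depth in this value was not tested.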

How the results depend on the processing

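Against WT, the 2579 calls ranged from 1720 with only the 6 libraries compared to 2705 with DESeq2, and from 1996 to 2577 when 1 library was left out. Library totals moved the 1221 higher to 2005 and the 1358 lower to 681, and the 6 libraries alone gave 854 lower. Against msn2∆ the 31 calls were 19 with library totals, 13 with only the libraries compared and 85 with DESeq2, and 14 to 19 without 1 library. The cause was not tested, beyond fewer samples in those fits. Removing the gene length trend left 2066 calls of 5949 features against WT and 27 against msn2∆. Of the 119 at least 2-fold lower features, 104 had a length, 103 of these stayed lower and 79 at least 2-fold lower. The promoter share of lower genes, 30.8%, was 28.3% before the start codon only, 59.6% for genes at least 2-fold lower and 44.6% in 500 bases.

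With a replicate block 2482 features passed against WT, 26 against msn2∆ and 1011 for the age difference. The numbers did not pair the samples, so this fit is given only here. Of 3125 gene and alternative pairs over 185 named genes, 3070 kept direction and side of the threshold, 40 (13 genes) lost the call, 15 (6 genes) gained one and 0 reversed. Among the 154 at least 2-fold features 10 lost their call without 1 library: PAU13, PAU4, BI3, YBL107W-A, YCL019W, YHL049C, YHR214W, YPR202W, YPR203W and tK(CUU)F. All 10 had low counts, with the mean over all libraries at or below 0.61 log2 CPM for each, and a young library held 25768602 to 35101890 counts in all.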

Other observations

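Over all features 17.9% were called higher and 19.9% lower. Sulfur genes were higher in 7 (24.1%) and lower in 4 (13.8%) of 29 in young double deletion cells. The methionine permease MUP1 (0.56 ± 0.0867) and MET10 of sulfite reductase (0.53 ± 0.0796) were higher, and the regulator genes MET31 (-0.69 ± 0.153) and MET28 (-0.62 ± 0.134) lower. Of 27 biotin and thiamine genes 5 were higher (18.5%, near the share over all features) and 3 lower (11.1%). The higher ones included the biotin transporter VHT1 (0.57 ± 0.116) and THI4 (0.67 ± 0.129), and the lower ones biotin synthase, BIO2 (-0.42 ± 0.0804). Biotin and thiamine genes were higher in 11 and lower in 2 with library totals. Among 18 hypoxic genes the sterol transporter AUS1 (0.80 ± 0.0932) and the desaturase OLE1 (0.73 ± 0.108) were among 3 higher. Of the 4 lower, 2 were at least 2-fold lower, CYC7 (-2.33) and COX5B (-1.84). The repressor ROX1 (-0.43 ± 0.127) was also lower. The hypoxic counts were 7 higher and 3 lower with library totals, 5 and 4 with the length trend removed, and 5 higher without replicate 1 of WT. Of 13 alcohol and aldehyde dehydrogenases, ALD3 (-1.02 ± 0.155) and ALD4 (-0.78 ± 0.0863) were lower and ALD6 (0.64 ± 0.0807) higher. Gluconeogenesis and glyoxylate genes were higher in 4 and lower in 4 of 20 (20.0% each, near the shares over all features), with PCK1 at -0.42 ± 0.158. These counts were 7 and 1 with library totals and 3 and 5 with the length trend removed. Without replicates 2 or 3 of WT or replicates 1 or 3 of the double deletion 2 were higher, and 1 lower without replicate 3 of WT and 2 without each of the others.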
